A study of Mus musculus with 8 samples.

Results

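The baseline transcriptome of control germinal centre B cells is described here as the set of genes whose RPKM (read count divided by transcript length and by the reads mapped in the library) was 1 or more in each of the 2 control libraries. Of 23469 gene symbols in the deposited tables, 6011 (25.6%) met that rule. The members were chosen by these RPKM themselves, so levels, ranks and counts of genes over the threshold are a description with no test, and only the agreement between the libraries and attributes that the rule did not use add to it.

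Germinal centres are the structures in lymphoid follicles where B cells that met antigen divide, mutate their immunoglobulin genes and compete for help from T cells. In the dark zone the cells divide and mutate the antibody genes, and in the light zone they take up antigen, present it on MHC class II molecules and are selected. The repressor BCL6 maintains the state, and the receptor S1PR2 holds the cells in the follicle centre.

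The control mice (Ctrl) were C57BL/6 with Irf8+/+ alleles and a heterozygous Cre knocked into a B lineage gene, so that Cre was expressed in B lineage cells while Irf8 was intact. Cells that were B220+, FAShigh and GL7high were sorted 13 days after immunization with the hapten-carrier conjugate NP-KLH. Experiments 1 and 2 gave 1 control library each (Ctrl 1 and Ctrl 2, n = 2), and no label states whether each came from 1 animal or from a pool. Not analysed here were 2 germinal centre libraries of Irf8 cKO mice and 4 libraries of B cells kept for 72 hours with lipopolysaccharide at 10 µg/ml. A knocked-in Cre takes the place of coding sequence of its allele, so these cells carry a single working copy of that gene.

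The 4 markers named for these cells were all members. They were chosen with earlier results of these data known, so their levels do not test what the cells are. Pou2af1, which encodes the octamer coactivator OBF1 that germinal centres require, measured 240.8 RPKM in Ctrl 1 and 196.7 in Ctrl 2 (mean 218.8 ± 31.1, SD, n = 2) and was the 7th highest of the 6011 genes. Cd74, which encodes the invariant chain, a chaperone of MHC class II molecules, measured 882 and 781 RPKM (831.4 ± 71.1) and ranked 2nd. Bcl6 measured 38.7 and 37.7 RPKM (38.2 ± 0.714) and ranked 128th, above 97.9% of the members. S1pr2 measured 11.8 and 10.8 RPKM (11.3 ± 0.740) and ranked 648th. The genes of the sort gave 37.2 and 44.3 RPKM for Ptprc (B220 is an isoform of its product) and 7.67 and 8.59 for Fas.

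The libraries differed in depth and in 2 other ways that touch the results. The spacing of low values gave an estimated 73.3 M reads (M, mega) for Ctrl 1 and 63.3 M for Ctrl 2, of which annotated exons outside 45S ribosomal RNA held 9.30 M and 7.16 M (12.7% and 11.3%). Neutrophil marker transcripts summed to 73.4 RPKM in Ctrl 1 and 7.79 in Ctrl 2. As deposited, 92.5% of the members with transcripts of 300 to 600 bases were lower in Ctrl 2, against 63.3% of all members. The RPKM outside Rn45s summed to 47056 in Ctrl 1 and 38083 in Ctrl 2, which is a shift of 0.31 on the log2 scale between the libraries as deposited and the libraries scaled to the same sum.

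Levels covered a wide range with a few very high genes. The median over members of the mean of both libraries was 3.06 RPKM (3.21 in Ctrl 1 and 2.88 in Ctrl 2), the middle of the distribution ran from 1.89 (lower quartile) to 5.82 (upper quartile), and the 99th percentile was 70.9. Between 1 and 2 RPKM lay 1684 members (28.0%), between 2 and 5 lay 2521 (41.9%), and between 5 and 10 lay 1059 (17.6%). Only 29 members reached 100 RPKM. With Rn45s left out, the 10 highest members held 7.83% of the summed RPKM, the 100 highest 24.3% and the 1000 highest 57.1%. By library the 100 highest held 25.9% in Ctrl 1 and 22.2% in Ctrl 2, and 90 of the 100 highest genes of Ctrl 1 were also among the 100 highest of Ctrl 2. All members together held 93.6% of the summed RPKM.

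**Figure D1:**
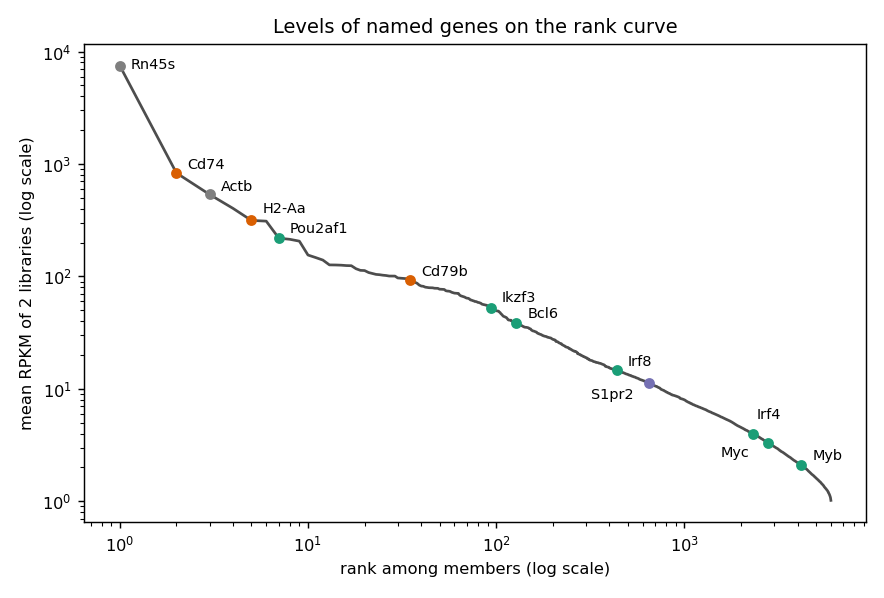
Mean RPKM of the 2 control libraries (vertical, log scale) against rank among the 6011 members (horizontal, log scale, 1 the highest). The line is all members and the points are named genes: green, transcription factors; orange, antigen presentation and antigen receptor; purple, S1pr2; grey, Rn45s and Actb. Cd74 at rank 2 and Pou2af1 at rank 7 sit at the top, Bcl6 at rank 128, and Myc (2785) and Myb (4185) in the lower part of the curve.

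The highest members mixed general transcripts with B cell genes. Rn45s measured 9085 RPKM in Ctrl 1 and 5887 in Ctrl 2 and is a precursor of ribosomal RNA, not a messenger RNA. Actb, cytoplasmic actin, measured 687 and 384 RPKM, and Eef1a1, the elongation factor that brings tRNA to the ribosome, 351 and 269. The entry Lars2, named for the mitochondrial leucyl-tRNA synthetase, ranked 4th with 554 and 250 RPKM. How much of that value comes from its messenger RNA was not tested. Malat1, a nuclear long noncoding RNA, measured 134.1 and 175.6 RPKM. Hsp90ab1, a cytosolic chaperone, measured 120.5 and 132.6 RPKM. With Anp32b (117.9 and 131.0 RPKM) and Tnfrsf13c, these were the 4 of the 30 highest genes with the larger value in Ctrl 2 as deposited. B cell genes among the 31 highest were Cd74, H2-Aa, H2-Ab1, Pou2af1, Cd24a, Tnfrsf13c and Cd180. Cd180, which encodes the toll-like receptor homologue RP105 of B cells, measured 95.1 and 97.7 RPKM. It ranked 31st, 1 place outside the 30 highest, and was named after its value was seen.

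The list of transcription factors of the germinal centre programme had 29 of 30 measured genes as members. Their median was 8.67 RPKM against 3.06 over all members. The count and median include Klhl6, which is not a transcription factor. Below Pou2af1 came Ikzf3 (Aiolos, an Ikaros family factor) at 52.1 RPKM in Ctrl 1 and 52.8 in Ctrl 2, and Mybl1 (A-MYB) at 39.8 and 46.9. Spib, an ETS factor of B cells, measured 49.0 and 36.2 RPKM, and Ikzf1 (Ikaros) 41.6 and 37.2. Pax5, the factor that keeps B cell identity, measured 23.6 and 33.3 RPKM. Bach2, a repressor of the plasma cell programme, measured 22.5 and 22.6 RPKM, and Irf8, the interferon regulatory factor left intact in these mice, 14.5 and 14.9. Ikzf3, Bcl6, Bach2 and Irf8 were thus close between the libraries, with log2 ratios of Ctrl 2 over Ctrl 1 from -0.04 (Bcl6) to 0.04 (Irf8) as deposited, and from 0.11 to 0.19 after the median ratio of the members was set to 0.

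Other factors of the list lay lower, near or below the median of all members (3.06 RPKM). Irf4, which drives plasma cell formation and acts early in activation, measured 4.51 RPKM in Ctrl 1 and 3.47 in Ctrl 2. Myc, the growth regulator that marks cells selected in the light zone, measured 2.87 and 3.72 RPKM, and Batf, an AP-1 factor, 2.80 and 2.18. Myb, a factor of progenitors and of early B cells, was the lowest member at 1.90 and 2.29. The only measured gene of the list that was not a member was Hhex, a homeobox factor required for memory B cells, at 0.453 and 0.392 RPKM. In bulk RNA, a low level in all cells and expression in few cells cannot be told apart, nor can fewer cells of a type and less RNA per cell.

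Surface and signalling genes of germinal centre B cells were members in 19 of 21 cases, with a median of 11.3 RPKM. Rgs13, a regulator of G protein signalling, measured 28.1 RPKM in Ctrl 1 and 18.8 in Ctrl 2, and Gna13, the G protein that acts downstream of S1PR2, 18.3 and 11.8. Cd22, an inhibitory coreceptor, measured 17.3 and 31.5 RPKM, with the larger value in Ctrl 2. Measured genes that were not members were Rgs1 (0.531 and 0.154 RPKM) and Mme (0.00962 and 0.0149). Mme encodes CD10, a marker of human germinal centre B cells.

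The list of antigen receptor signalling chains, coreceptors and other B cell surface proteins stood high in the range. It had 16 of 17 measured genes as members and a median of 25.3 RPKM. No immunoglobulin chain is among its measured genes. Cd24a, a small anchored sialoprotein, led with 142.6 and 83.7 RPKM. Cd79b and Cd79a, the signalling chains that pair with surface immunoglobulin, measured 101.8 and 84.9 RPKM and 82.6 and 70.8 RPKM. Ms4a1 (CD20) measured 96.4 and 67.6 RPKM. Lair1, an inhibitory receptor, was the only measured gene of the list below the threshold (0.0310 and 0.0179 RPKM). The kinases and adaptors downstream were members in 28 of 29 cases at lower levels, with a median of 8.49 RPKM. Rac2, a small GTPase of blood cells, measured 37.5 and 31.1 RPKM, the adaptor Blnk 30.5 and 30.9, Syk, the kinase recruited to the CD79 chains, 15.9 and 21.1, and Lyn, a SRC family kinase, 17.8 and 17.0. The phosphatase Ptpn22 (0.389 and 0.404 RPKM) was the 1 measured gene of this list that was not a member.

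**Figure D2:**
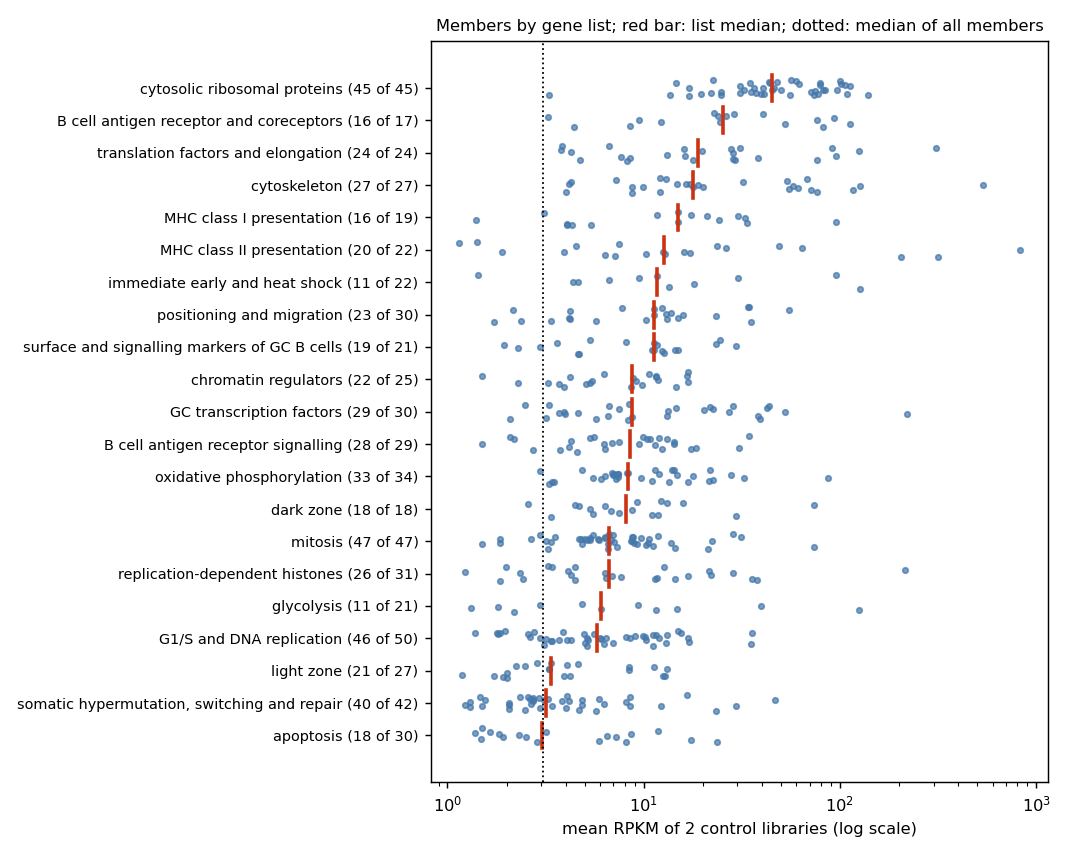
Mean RPKM of the 2 control libraries (horizontal, log scale) for the members of 21 gene lists, 1 point per member. Labels give members of measured genes, the red bar is the median of the list's members, and the dotted line is the median of all 6011 members (3.06 RPKM). Ribosomal proteins (45.0 RPKM) and the antigen receptor and coreceptor list (25.3 RPKM) have the highest medians, and repair (3.18 RPKM) and apoptosis genes (3.02 RPKM) lie at the median of all members.

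MHC class II presentation held the highest messenger RNA among the symbols of the deposited tables, Cd74. Genes of the mitochondrial chromosome are not in those tables, and no immunoglobulin heavy or light chain symbol is among the 30 highest members. Whether the tables hold entries for those chains was not tested. No rank over all messenger RNA of the cells is therefore given. Of 22 measured genes 20 were members, with a median of 12.6 RPKM. After Cd74 came transcripts of class II chains, whose levels do not show whether a presenting molecule is assembled. H2-Aa (alpha chain of I-A) measured 348 RPKM in Ctrl 1 and 281.5 in Ctrl 2, H2-Ab1 (beta chain of I-A) 227.8 and 183.9, and H2-Eb1 (beta chain of I-E) 71.8 and 56.1. The editing molecules that load peptide or restrain loading were lower: H2-DMa, the alpha chain of H2-M, measured 31.9 and 20.6 RPKM, H2-DMb2 53.9 and 44.2, H2-DMb1 5.62 and 9.35, H2-Ob, the beta chain of the H2-M inhibitor H2-O, 24.2 and 23.1, and H2-Oa 9.24 and 11.3. Ciita, the master transactivator of these genes, measured only 6.19 and 8.06 RPKM, and the RFX subunits Rfx5 and Rfxank 4.24 and 4.80 and 1.08 and 1.22. The third RFX subunit, Rfxap, was not a member at 0.390 and 0.649 RPKM, nor was the protease Ctsl at 0.0828 and 0.192. H2-DMa, H2-DMb1, H2-DMb2, H2-Ob, H2-Oa, Ciita, Rfx5 and Rfxank lie outside the naming rule and were named after their values were seen, to show each chain and regulator of the pathway.

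The start regions of 5 class II chain genes are shown because they share the transactivator CIITA. They span the range of levels, from H2-Aa at rank 5 to H2-DMb1 at rank 1069. Class II promoters are known to carry an X box bound by the RFX complex and a Y box, an inverted CCAAT element bound by NF-Y. The 150 bases before the RefSeq start are printed from the coding strand, 5′ to 3′, on GRCm38.p6, with the letters TGATTGG and ATGATGC in capitals. H2-Aa lies at chr17:34287824-34287973 on the minus strand. The other 4, on the plus strand, are H2-Eb1 at chr17:34305717-34305866, H2-DMb1 at chr17:34153041-34153190, H2-Ob at chr17:34238755-34238904 and H2-DMa at chr17:34122682-34122831. The RefSeq start of H2-Aa is 52 bases from the start in the deposited table, and those of the others coincide with it.
H2-Aa: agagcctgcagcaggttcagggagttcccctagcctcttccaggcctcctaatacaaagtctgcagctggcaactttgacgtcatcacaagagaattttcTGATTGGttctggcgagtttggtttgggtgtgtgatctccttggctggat
H2-Eb1: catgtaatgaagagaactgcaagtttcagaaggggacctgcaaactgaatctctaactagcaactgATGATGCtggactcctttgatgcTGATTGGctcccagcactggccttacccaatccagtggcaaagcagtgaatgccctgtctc
H2-DMb1: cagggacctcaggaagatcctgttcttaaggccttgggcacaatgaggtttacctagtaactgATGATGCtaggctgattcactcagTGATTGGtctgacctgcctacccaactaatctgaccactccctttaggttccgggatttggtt
H2-Ob: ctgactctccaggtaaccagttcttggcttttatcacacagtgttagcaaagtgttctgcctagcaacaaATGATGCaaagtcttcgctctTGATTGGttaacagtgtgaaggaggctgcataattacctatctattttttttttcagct
H2-DMa: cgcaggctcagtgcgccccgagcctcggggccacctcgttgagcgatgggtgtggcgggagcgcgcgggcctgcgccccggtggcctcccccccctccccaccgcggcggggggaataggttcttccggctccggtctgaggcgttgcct

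Of the class II chain genes, 8 had a RefSeq promoter window (250 bases before to 50 after the start), and TGATTGG, searched on both strands, stood in 7 of them: H2-Aa, H2-Eb1, H2-Eb2, H2-DMb1, H2-DMb2, H2-Oa and H2-Ob. The window of H2-DMa was the exception. Each window rests on a single annotated start, and whether the cells start there was not tested. Over all 17761 promoter windows the share with TGATTGG was 9.36%. The letters began 50 bases before the start in H2-Aa, 61 in H2-Eb1, 63 in H2-DMb1 and 59 in H2-Ob. ATGATGC stood in H2-Eb1, H2-DMb1, H2-DMb2 and H2-Ob, against 2.26% of all windows. The 7 other genes of the list with a window, which include RFX subunits and proteases, had TGATTGG in 1 case (Rfx5) and ATGATGC in none. The motifs were chosen after the sequences were seen, so the shares describe these windows only, and a match is not a measured binding site.

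The same windows differed in CpG content. The ratio of observed to expected CpG was 0.158 in H2-Aa, 0 in H2-Eb1, 0.0454 in H2-Eb2, 0.184 in H2-DMb1, 0.149 in H2-DMb2, 0.174 in H2-Oa and 0.166 in H2-Ob, but 0.731 in H2-DMa. The median over the 4887 members with a window (81.3% of members) was 0.825, and by level, from the lowest to the highest quartile of members, it was 0.815, 0.816, 0.828 and 0.849. The class II chains other than H2-DMa thus lay far below the usual CpG content of the members. Of the genes that were not members 73.7% had a window, which is under 80%, so a comparison of members with other genes is void and is not given.

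MHC class I presentation had 16 of 19 measured genes as members, with a median of 15.0 RPKM. B2m, the light chain of all class I molecules, measured 127.1 RPKM in Ctrl 1 and 63.3 in Ctrl 2. Psme1, an activator of the immunoproteasome, measured 38.0 and 29.6, and the immunoproteasome subunit Psmb9 39.4 and 21.2. H2-K1, a class I heavy chain, was close in both libraries at 33.1 and 32.2 RPKM. Tap2, a chain of the peptide transporter, measured 0.813 and 1.87 RPKM and missed the threshold in Ctrl 1 only, as did the class I transactivator Nlrc5 (0.699 and 1.22). H2-L was listed at 0 in both libraries.

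Dark zone and light zone genes were both present, at different levels. All 18 measured dark zone genes were members, with a median of 8.10 RPKM. Among them were Mki67, the proliferation antigen, at 70.3 and 76.6 RPKM, and Cxcr4, the chemokine receptor that places cells in the dark zone, at 20.1 and 11.5 RPKM. Foxo1, a factor of the dark zone programme, measured 14.8 and 11.6 RPKM. Of 27 measured light zone genes 21 were members, with a median of 3.38 RPKM. Cxcr5, the receptor for the follicular chemokine CXCL13, led at 14.4 and 12.0 RPKM, followed by the activation marker Cd83 at 13.5 and 12.1, the NF-kB subunit Rel at 11.2 and 13.8 and the interleukin 21 receptor Il21r at 11.5 and 11.2. The early growth response gene Egr2 (0.958 and 0.882 RPKM), the NF-kB subunit Relb (0.513 and 0.559) and the nuclear receptor Nr4a1 (0.231 and 0.331) were not members. The lists share no gene, but cell cycle genes make up part of the dark zone list.

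Cell division genes were present almost without gaps. All 47 measured genes of mitosis were members (median 6.66 RPKM), as were 46 of 50 genes of the G1/S step and DNA replication (median 5.77 RPKM). In mitosis, Mki67 was followed by Ube2c, the ubiquitin carrier of the anaphase complex, at 39.9 and 22.5 RPKM, the condensin subunit Smc4 at 30.4 and 26.8 and the cyclin Ccna2 at 28.3 and 16.1. In replication, the sliding clamp Pcna measured 45.7 and 26.0 RPKM, Top2a, a topoisomerase, 38.2 and 32.3, Ccnd3, the D cyclin of dividing germinal centre B cells, 17.8 and 16.5, and Dnmt1, the maintenance DNA methyltransferase, 15.4 and 18.3. The 4 genes that were not members were the other D cyclins and a pair of inhibitors. Ccnd2 measured 0.754 and 1.19 RPKM, the inhibitor Cdkn1b 0.582 and 0.708, and Cdkn1a (p21) 0.269 and 0.429. Ccnd1, the remaining gene and named after its value was seen, measured 0.0834 and 0.317.

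Genes of hypermutation, class switching and repair were members in 40 of 42 cases, but with a median of 3.18 RPKM they lay at the level of the usual member. H2afx, the histone variant that marks DNA breaks, measured 58.8 and 34.2 RPKM and led the list. Swap70, a signalling protein first found in the switching complex of B cells, measured 20.7 and 26.3 RPKM, and Parp1, a sensor of DNA breaks, 15.3 and 18.0. Polh, the polymerase that mutates A and T bases, measured 13.8 and 10.6 RPKM, while Ung, the glycosylase that removes uracil from DNA, measured 3.50 and 3.32. Polh and Ung were named after their values were seen, Polh as a gene of this list. Exo1 (1.25 and 0.985 RPKM) and Xrcc4 (1.31 and 0.917) missed the threshold in Ctrl 2 only.

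Positioning and migration genes were members in 23 of 30 cases, with a median of 11.3 RPKM. Coro1a, an actin regulator of lymphocytes, measured 69.0 and 40.6 RPKM, Gnai2, the inhibitory G protein of chemokine receptors, 35.2 and 35.5, and Cdc42, a small GTPase, 46.3 and 22.1. Of the other S1pr genes of the list, S1pr4 measured 1.19 and 0.922 RPKM and S1pr1 0.678 and 0.843. S1pr2 thus stood above both of these and above S1pr3 (2.19 and 2.12 RPKM), which was named after its value was seen.

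Apoptosis genes were members in 18 of 30 cases, against 25.6% of all symbols, with a median of 3.02 RPKM. Mcl1, the survival protein that germinal centre B cells require, led with 28.2 and 19.3 RPKM. Bcl2, which the cells are known to switch off, measured 0.353 and 0.286, and was named after its value was seen. The tumour suppressor Trp53 measured 17.9 and 16.9 RPKM, and its inhibitors Mdm4 and Mdm2 11.0 and 12.7 and 8.28 and 9.01. Cytochrome c (Cycs, 1.59 and 0.840 RPKM) and the BH3 protein gene Bmf (0.945 and 1.17) each missed the threshold in 1 library.

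Chromatin regulators that are required or mutated in germinal centre B cells or their lymphomas were members in 22 of 25 cases, with a median of 8.72 RPKM. After Dnmt1 came Smarca4, the ATPase of the BAF remodelling complex, at 14.7 and 19.0 RPKM, the deacetylase Hdac1 at 18.0 and 15.3, and Ezh2, the methyltransferase of histone H3 lysine in Polycomb complexes, at 14.4 and 15.0. Those below the threshold were Tet2 (0.586 and 0.815 RPKM), Dnmt3a (0.529 and 0.501) and Kdm6b (0.354 and 0.569).

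Ribosomal proteins and oxidative phosphorylation were expressed throughout. All 45 cytosolic ribosomal protein genes of the list used here, which is not complete, were members. Their median of 45.0 RPKM was the highest of any list, with Rpl4 at 148.8 and 130.5 RPKM as the highest gene listed. Rpl41, another ribosomal protein gene that is not in the list, measured 196.1 and 97.8 RPKM. The respiratory chain and ATP synthase gave 33 of 34 genes as members, with a median of 8.35 RPKM. Atp5b, the catalytic subunit of ATP synthase, measured 108.2 and 65.5 RPKM, Atp5a1 39.0 and 25.9, and the cytochrome oxidase subunit Cox8a 38.6 and 16.9. Translation factors were members in 24 of 24 cases (median 18.8 RPKM) and cytoskeletal genes in 27 of 27 (median 17.9 RPKM). Pabpc1, the poly(A) binding protein, measured 109.9 and 81.9 RPKM, Eef2 84.9 and 98.3, Pfn1, an actin binding protein, 147.4 and 105.3, and Tmsb4x, thymosin beta, 136.3 and 97.7.

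The glycolysis list had 11 of 21 measured genes as members, with a median of 6.02 RPKM. It holds more than 1 gene for some steps, such as Aldoa and Aldoc, so the count is not one of steps present. Gapdh measured 139.2 and 110.4 RPKM, Ldha, the lactate dehydrogenase A chain, 47.7 and 31.7, Aldoa, an aldolase, 19.9 and 9.67, and Pkm, pyruvate kinase, 12.5 and 10.5. Among genes below the threshold were Pfkl (0.684 and 0.971 RPKM), the glucose transporter Slc2a3 (0.930 and 0.318) and Aldoc (0.527 and 0.667). The enolase Eno1, named after its value was seen, measured 0.243 and 0.214 RPKM, while the entry Gm5506, which spans the same bases on the same strand, measured 16.8 and 12.8. The level of Eno1 alone therefore cannot be read from the tables.

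Immediate early genes lay on both sides of the threshold, with more of them below it. Of 22 measured genes of this list, which includes heat shock genes, 11 were members. Hspa8 measured 108.8 and 82.0 RPKM, Hsp90aa1 32.8 and 28.0 and Hspd1, a mitochondrial chaperonin, 19.4 and 16.8. The AP-1 genes Jund (1.17 and 0.580 RPKM), Junb (0.783 and 0.565) and Fos (0.669 and 0.399) were not members.

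Genes that mark other cell types were used to see what the sort could hold besides germinal centre B cells. Plasma cell factors and markers were members in 8 of 13 cases. Igj, the joining chain of polymeric immunoglobulin, measured 28.9 and 15.6 RPKM, Mzb1, a chaperone of the secretory pathway, 21.1 and 14.2, Slamf7 18.2 and 16.4 and Xbp1, the factor of the secretory programme, 9.23 and 6.05. The defining genes were not members: Prdm1 (BLIMP1) measured 0.285 and 0.457 RPKM, Sdc1 (CD138) 0.209 and 0.0774, and Tnfrsf17 (BCMA) was listed at 0 in Ctrl 1 and at 0.0388 in Ctrl 2. Naive and marginal zone genes were members in 11 of 18 cases. Tnfrsf13c, the BAFF receptor of all mature B cells, measured 97.7 and 109.3 RPKM, the inhibitory receptor Btla 18.2 and 22.5, Fcer2a (CD23) 10.2 and 14.3 and Cr2 (CD21) 7.95 and 11.0. S1pr1 and Klf2 (0.382 and 0.538 RPKM) were below the threshold. Memory B cell genes were members in 2 of 10 cases, Nt5e (CD73) at 3.30 and 2.29 RPKM and Cd38 at 1.90 and 1.97. Below the threshold were Pdcd1lg2 (0.653 and 0.526 RPKM), Il9r (0.410 and 0.613) and Klf2.

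Genes of T cells, natural killer cells and red cells were at or near 0. Of 21 measured T cell genes 2 were members, Cd247 at 4.47 and 3.99 RPKM and Lck at 3.66 and 3.21, and 7 were listed at 0 in both libraries, among them Cd3d, Cd3g and Cd4. The 3 next highest were Il7r (0.229 and 0.992 RPKM), Cd40lg (0.0870 and 0.126) and Lat (0.143 and 0.0383). No natural killer gene of 9 and no erythroid or platelet gene of 16 was a member, with sums of 0.0933 and 0.0753 RPKM for the first list and 2.91 and 2.17 for the second. Dendritic cell genes had 1 member of 11, Flt3, at 1.29 and 1.69 RPKM. Follicular dendritic and stromal genes had 2 members of 19, Cr1l (7.25 and 7.06 RPKM) and the adhesion molecule Pecam1 (2.13 and 3.84), while Cxcl13, Clu and Dcn were listed at 0 in both libraries. An estimated 3 reads on a transcript of 2000 bases correspond to 0.0205 RPKM in Ctrl 1 and 0.0237 in Ctrl 2, so that values under that level are not told from 0.

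Of the marker lists, neutrophil genes had the largest ratio of summed RPKM between the libraries. Of 13 measured neutrophil genes 3 were members, and all 13 were higher in Ctrl 1. S100a8 and S100a9, the calprotectin subunits, measured 26.0 RPKM in Ctrl 1 against 1.69 in Ctrl 2, and 21.8 against 2.26. The granule protein gene Ngp measured 11.9 against 2.24. Lcn2 (lipocalin) measured 7.38 against 0.776 RPKM and Camp (cathelicidin) 2.22 against 0.158, and neither was a member. The granule enzymes Mpo and Elane measured 0.550 and 0.296 RPKM in Ctrl 1 and were listed at 0 in Ctrl 2. Macrophage genes summed to 29.4 and 14.0 RPKM with 3 of 20 as members: Lyz2 (16.5 against 3.47), Apoe (9.04 and 7.86) and Cd68 (1.15 and 1.31). C1qb, Timd4, Cd14, Spic and Fcgr1 were at 0 in both libraries. Whether cells or free RNA of this kind shaped other values of Ctrl 1 was not tested.

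**Figure D3:**
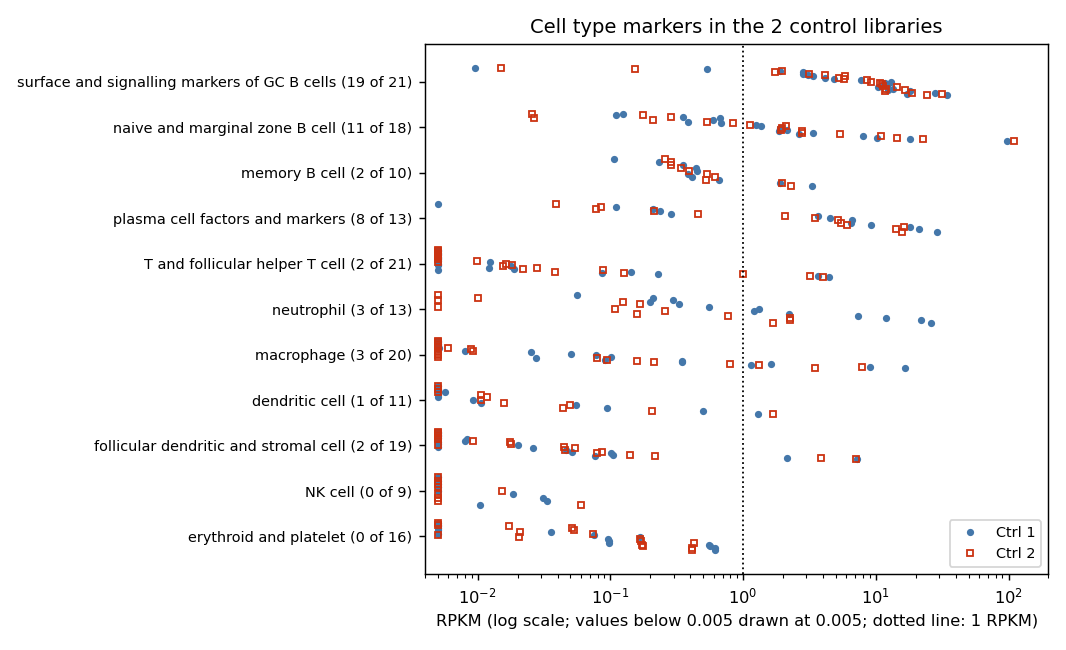
RPKM of cell type markers in Ctrl 1 (filled blue) and Ctrl 2 (open red), log scale, with values under 0.005 drawn at 0.005 and the threshold of 1 RPKM dotted. Labels give members of measured genes. T cell, natural killer, erythroid and stromal genes lie left of the threshold apart from Cd247, Lck, Cr1l and Pecam1, and the neutrophil genes of Ctrl 1 lie to the right of those of Ctrl 2.

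Among noncoding and sex-linked transcripts, Rpph1, the RNA of ribonuclease P, measured 46.1 RPKM in Ctrl 1 and 18.0 in Ctrl 2, and the growth arrest transcript Gas5 16.1 and 18.8. Neat1, the scaffold of paraspeckles, missed the threshold in Ctrl 1 only (0.813 and 1.02 RPKM). Xist, which silences an X chromosome in females, measured 0.103 and 0.125 RPKM and its antisense partner Tsix 0.00631 and 0.00732. The Y-linked Ddx3y (2.80 and 2.71 RPKM), Eif2s3y (3.27 and 4.89), Kdm5d (2.99 and 3.37) and Uty (1.30 and 1.31) were members in both libraries. So were Ddx3x (10.2 and 9.13 RPKM), Kdm6a (3.71 and 4.12), Kdm5c (2.10 and 2.02) and Eif2s3x (2.02 and 1.46). The libraries thus had the same pattern of X and Y transcripts.

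The libraries agreed closely in rank over the members. Across the 6011 genes, which are not independent replicates and were chosen for high values in both libraries, the Pearson correlation of log2(RPKM + 1) was 0.947 and the Spearman correlation 0.903. As deposited the median log2 ratio of Ctrl 2 over Ctrl 1 was -0.15, with 3803 members (63.3%) lower in Ctrl 2. With both libraries scaled to the same sum outside Rn45s, 2214 (36.8%) were lower, so the overall direction depends on the scaling. The SD of the log2 ratios was 0.47. After the median was set to 0, 96.7% of members lay within 2-fold. Past 2-fold were 123 members that were lower in Ctrl 2 (2.05%) and 73 that were higher (1.21%), against 2.86% and 2.16% of all 6562 genes with a mean of 1 RPKM or more. Those 6562 genes include all 6011 members, so the shares are not independent and no conclusion is drawn from how close they are. The threshold in both libraries itself keeps out low genes that differ.

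**Figure D4:**
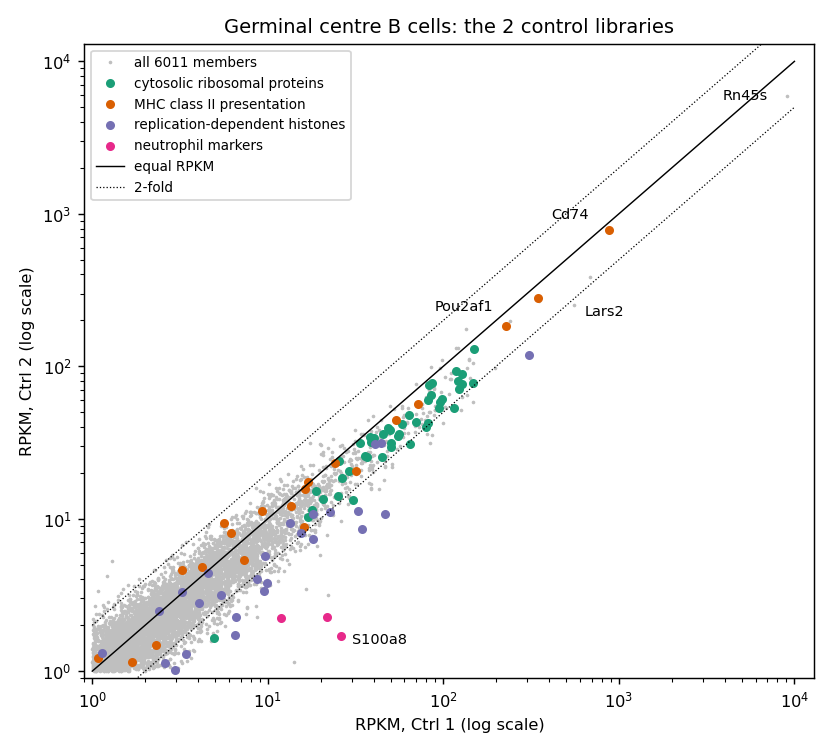
RPKM in Ctrl 2 (vertical) against Ctrl 1 (horizontal), both on log scales, for all 6011 members (grey) and the members of 4 lists in colour. The solid line is equal RPKM and the dotted lines are 2-fold as deposited. As deposited, the ribosomal proteins and most histones lie below the line of equality, MHC class II genes lie along it, and the neutrophil genes lie farthest below it.

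An estimated median of 535 reads stood behind the lower of a member's values, for which counting error alone gives a median SD of 0.08 on the log2 scale. The median distance of a member from the centred ratio was 0.30. The counting SD rests on estimated reads of amplified libraries and leaves out all variation between samples, so the 2 values are set side by side with no test. With 1 library per experiment, differences of animals, sorting, amplification and experiment cannot be told apart. The ratio moved with transcript length. Members of 300 to 600 bases (120 genes) had a median log2 ratio of -0.88 as deposited, those of 600 to 1000 bases (352) -0.50, those of 1000 to 2000 (1238) -0.27, those of 2000 to 4000 (2350) -0.13, those of 4000 to 6000 (1158) -0.08 and those of 6000 or more (704) 0.04. The 37 members under 300 bases were at -0.15 with a wide spread. Over the 5959 genes the ratio and log2 length correlated at 0.31 (Pearson; Spearman 0.29). All genes share the same 2 libraries.

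**Figure D5:**
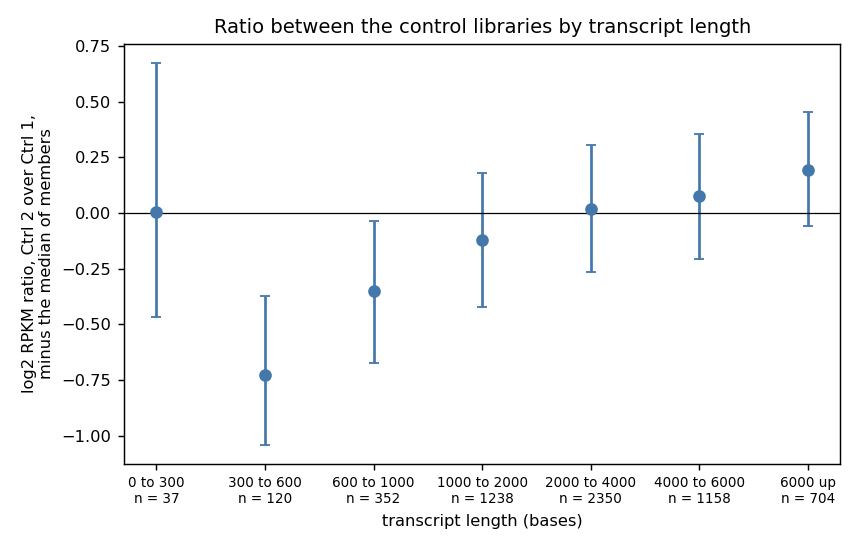
Log2 ratio of Ctrl 2 over Ctrl 1 minus the median of all members (vertical) by transcript length in bases (horizontal), as the median (point) and quartiles (bars) of each length class, with the number of members below. The ratio is lowest for 300 to 600 bases and climbs to the longest class, and the 37 shortest genes stand apart from that order.

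Lists differed in their ratios and in their lengths. Over all 6011 members 63.3% were lower in Ctrl 2 as deposited and 36.8% after scaling to the same sum, and 2.05% were more than 2-fold lower after centring. Of the 45 listed ribosomal protein genes (median transcript 878 bases, against 2913 over all members) all were lower in Ctrl 2 as deposited and 35 after scaling to the same sum, with medians of -0.60 and -0.30 on the log2 scale. Of 33 oxidative phosphorylation members (median 865 bases), 31 were lower as deposited and 28 after that scaling (medians -0.78 and -0.48). Of the 26 members in the replication-dependent histone list (median 686 bases), which is not complete, 23 and 22 were lower (medians -1.07 and -0.77), and 12 were more than 2-fold lower after centring. Hist1h2bl, an H2B gene outside that list, measured 147.0 and 58.0 RPKM. Hist1h4d, a histone H4 gene, measured 308 RPKM in Ctrl 1 and 119.2 in Ctrl 2 and ranked 8th. The H1 linker histone genes Hist1h1b (44.0 and 31.2 RPKM) and Hist1h1e (40.5 and 30.9) were closer, and Hist2h4 measured 46.2 and 10.7. Replication-dependent histone messages lack a poly(A) tail, and near-identical copies can share reads, so single histone genes are uncertain. Of the 25 lists with 5 or more members, 11 had a median below 0 under both scalings, 6 a median above 0 under both, and 8 a median that changed sign. Medians below 0 included the dark zone list (-0.49 as deposited and -0.18 at the same sum, median 2447 bases) and the plasma cell list (-0.47 and -0.17, 3052 bases). Those above 0 included naive and marginal zone genes (0.31 and 0.61, 2533 bases) and repair genes (0.09 and 0.40, 3941 bases). GC transcription factors (-0.05 and 0.26), MHC class II (-0.17 and 0.14) and DNA replication (-0.26 and 0.04) were among those that changed sign, and no direction is given for these. The part of transcript length in these differences was not tested.

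The largest single differences were on the side of Ctrl 1. Among the 1806 members with a mean of 5 RPKM or more, S100a8 was 15.4-fold higher in Ctrl 1 than in Ctrl 2 and S100a9 9.62-fold. Rmrp, the RNA of the mitochondrial RNA processing ribonuclease, was 12.2-fold higher (14.0 against 1.15 RPKM). Rpl34, a ribosomal protein gene, was 6.96-fold higher (21.9 against 3.14), whereas Rpl34-ps1, an entry over the same bases, measured 31.2 and 27.1. Ngp (5.31-fold), Lyz2 (4.75-fold), Hist2h4 (4.31-fold), Hist1h4c (4.03-fold), Ifi27l2a (3.78-fold) and 2010107E04Rik (3.44-fold) completed the 10. On the side of Ctrl 2 the largest was D4Wsu53e, 2.05-fold higher (3.42 and 7.02 RPKM). It was followed by Lrrfip1 (1.99-fold), Rab4b (1.93-fold), Macf1 (1.88-fold), Ankrd11 (1.83-fold), Pisd-ps1 (1.82-fold), Cd22 (1.82-fold), BC024582 (1.80-fold), Gtf2f1 (1.75-fold) and Stk11 (1.68-fold). Macf1, a giant linker of actin and microtubules, measured 8.53 and 16.0 RPKM. Transcripts of the 10 genes higher in Ctrl 1 ran from 271 to 1630 bases, all under the member median. Those of the 9 genes higher in Ctrl 2 with a known length ran from 1192 to 20413 bases, and 6 of the 9 were under that median too. These folds are of RPKM as deposited, with 1 library on each side and no test.

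At the threshold itself the choice of members was narrow. Just inside were Gnpda1 (1.24 and 1.00 RPKM), Man2b2 (1.24 and 1.00), Lrrc32 (1.00 and 1.39), Hif1an (1.00 and 1.14) and Ccpg1 (1.00 and 1.18). Just outside were Ptcd1 (1.08 and 0.999 RPKM), Atrn (0.999 and 1.06), Pam16 (2.29 and 0.999), Zfp369 (0.9997 and 1.27) and Lnp (1.58 and 0.9997). A further 555 genes reached the threshold in Ctrl 1 only and 422 in Ctrl 2 only, and 8816 symbols were listed at 0 in both libraries.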

How the data were processed

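Per the labels' protocols, RNA came from RNeasy Mini columns, was amplified (Ovation RNA-Seq System v2) and became Nextera XT libraries. Amplification and small input can change the balance of transcripts. The authors deposited an RPKM per RefSeq gene and library, made in Wardrobe per the series design text. DESeq, Cuffdiff, Cufflinks 2.2 and TopHat2 2.0 are named in the submitters' processing notes, beside mm9 and mm10, without roles. For the RPKM no aligner is given in the sources used here, and the deposited coordinates coincide with GRCm38 (mm10). Only the 2 control columns were read.

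Entries sharing a symbol were summed, and a pseudocount of 1 was used for correlations. Depth was estimated from the spacing of low values: 71.5% and 73.8% were whole reads within 0.1, so reads were not recovered and no count test was run. Transcript lengths came from GENCODE on GRCm38 for 99.1% of members, and promoters from RefSeq on GRCm38.p6 for 4887 members. Ratios were centred on the members' median. No test was run, since each experiment has 1 control library. The calculations were tested on simulated data (Python 3.11.15, numpy 2.4.6, pandas 2.3.3, matplotlib 3.10.9).

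The members and the 33 lists were chosen with earlier results of these data known. Named genes are the 4 markers, the 30 highest members, the 4 highest members and 3 highest other genes of each list, all transcription factor and sex-linked genes, the 10 largest differences each way and 5 genes on each side of the threshold. Genes of the cell type lists beyond these, and others marked in the text, were named after their values were seen. Some genes that the rule names are not reported here. The alternatives were other thresholds, pseudocounts and scalings, Rn45s kept, a length minimum and leaving out each library.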

Additional observations from a re-analysis of the deposited data

How the results depend on the processing

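Of 56 alternative values 37 stayed within a set tolerance, 18 moved past it and 1 reversed. The tolerance was 1.5 times for counts of genes, 1 SD between the libraries for the median level and the share of the 100 highest members, the 95% binomial interval for the share within 2-fold, and the same value at the second decimal for the rest. The reversed one was the median log2 ratio of Ctrl 2 over Ctrl 1, at 0.13 with the same sum outside Rn45s. It was -0.069 with median-of-ratios scaling, and -0.13 and -0.18 at thresholds of 0.5 and 2 RPKM. A threshold of 2 RPKM left 3838 members, with a median level of 4.69 RPKM, a correlation of 0.939 and 97.4% within 2-fold. A threshold of 0.5 RPKM gave 7804 members, a median level of 2.26 RPKM, 95.3% within 2-fold and a median promoter CpG ratio of 0.816. The 1.5-fold limit held 80.5% of members. Keeping Rn45s put 35.5% of the summed RPKM in the 100 highest members. The correlation was 0.938 with a pseudocount of 0, 0.939 with 0.1 and 0.979 over all genes. Choosing members from a single library gave a median level from 2.69 to 2.89 RPKM and a CpG ratio from 0.822 to 0.824. The cause of these shifts was not tested beyond what each setting changes by construction.

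No paired analysis was possible because a single group was described and no result came from a test. With 2 libraries of 2 experiments, an SD rests on 1 difference per gene. RPKM rest on an annotation in which entries overlap and on estimated, not stated, depth. Intervals from counting cover counting error only, and low values and single histone or pseudogene-sharing genes are the least certain.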

Other observations

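Gene families sorted by symbol, chosen after the tables were seen, gave further values of the control state. Over all 23469 symbols the share of members was 25.6%. Of 41 interleukin receptor genes 4 were members, and the highest was Il17ra, ahead of Il2rg, Il21r and Il4ra. Of 19 chemokine receptor genes 2 were members, Cxcr4 and Cxcr5. Of 20 Tnfrsf genes 2 were, Tnfrsf13c and Tnfrsf13b. Of 12 toll-like receptor genes 3 were (25%, near the share over all symbols), led by Tlr9, a sensor of unmethylated DNA. All 8 Gimap genes, GTPases of lymphocytes, were members with a median of 3.91 RPKM. Of 9 Irf genes 7 were members, led by Irf8, and of 7 Stat genes 5 were. The proteasome had 37 of 40 genes as members (median 7.52 RPKM) and the mitochondrial ribosome 63 of 76 (median 2.42 RPKM). At the other end 0 of 40 Hox genes, 0 of 63 Serpin genes and 0 of 334 Vmn genes were members. Of 1122 olfactory receptor genes 1 was, Olfr99.

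The X chromosome had 177 of 1038 genes as members (17.1%) and the Y chromosome 5 of 47, while autosomes ran from 18.8% (chromosome 7) to 29.4% (chromosome 11). Without olfactory and vomeronasal receptor genes, chromosome 7 stood at 23.1% and X at 17.2%.

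Some levels depend on how the tables name and split genes. There were 12 pairs of entries on the same strand that overlapped by at least 90% and held a member, and in 6 of them the partner was not a member. Oaz1, the antizyme of polyamine control, measured 0.468 and 0.0449 RPKM, while Oaz1-ps over the same bases measured 56.5 and 29.8. Rpl30 measured 4.95 and 1.65 RPKM against 80.6 and 47.1 for Gm12191. Akr1b3 was listed at 0 in both libraries against 9.71 and 7.89 RPKM for Gm6644. Further, 25 symbols were turned into calendar dates, of which 12 met the rule for members. Under the symbol 1-Mar the tables hold an entry on chromosome 8 at 8.78 and 6.59 RPKM and another on chromosome 1 at 0 and 0.0292, and under 2-Mar entries on chromosomes 17 (1.60 and 2.11) and 1 (2.12 and 1.56). Summing entries by symbol joins distinct genes there.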
